A study of Mus musculus with 158 samples.

Results

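The loci of 10 genes of the circadian clock, Arntl, Per1, Per2, Per3, Cry1, Nr1d1, Nr1d2, Dbp, Tef and Hlf, were examined for open chromatin in mouse tissues. They are 10 of the 21755 protein-coding genes annotated on the autosomes and chromosome X. They were chosen by name, not by a measured value, though with earlier results of these data known. A locus was the gene body of GENCODE vM21 on mm10 plus 20 kb on both sides, which gave windows from 45.1 kb at Dbp to 146.7 kb at Arntl. DNase-seq, which sequences fragments released from nuclei by DNase I, had been carried out on F1 mice of 8 weeks of age. All had C57BL/6J mothers, and the strain of the father follows the x in the name of the hybrid. B6x129 and B6xC3H (C3H/HeJ) have fathers of classical inbred strains, and B6xCAST (CAST/EiJ), B6xPWK (PWK/PhJ) and B6xSPRET (SPRET/EiJ) have wild-derived fathers. Each hybrid was measured in whole liver, both kidneys, whole lung and B cells, the last being femoral marrow cells left after magnetic removal of cells with CD43 or CD11b. The study's methods give females for B6x129, B6xC3H and the marrow donors, and do not state the sex of the other F1 mice. Solid tissues were typically pooled from 4 mice. Hotspots, the stretches of chromatin called open at an FDR of 5%, had been called after pooling all samples of a hybrid and tissue, so 20 adult sets were available and the 5 hybrids served as the repeats of a tissue. Cultured B6xCAST mouse embryonic stem cells (mESCs) gave 1 DNase-seq set and 1 CTCF ChIP-seq set, without repeats of a set. The labels name more than 1 DNase-seq sample of these cells, and whether the set pools them was not examined.

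The clock of mammalian cells is a feedback loop of transcription. The protein of Arntl, BMAL1, pairs with CLOCK and binds E-boxes, and so drives the Per and Cry genes, whose proteins return to repress it. BMAL1 and CLOCK also drive Nr1d1 and Nr1d2, which encode REV-ERBα and REV-ERBβ, repressors that bind the same letters as the ROR activators and act on Arntl. Dbp, Tef and Hlf encode the PAR bZIP activators, which bind D-boxes and pass the rhythm on to genes of metabolism in liver and kidney. Transcripts of these genes rise and fall over the day. The time of day at which each animal was killed is not given in the sources used here, so a difference in that time cannot be told apart from a difference between tissues or hybrids.

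The 20 adult sets held 78387 to 295565 hotspots. These covered 28.95 to 68.73 Mb in B cells, 43.76 to 97.03 Mb in lung, 63.64 to 85.15 Mb in kidney and 78.44 to 128.84 Mb in liver. Open base pairs of a locus, meaning the bases that hotspots covered, were therefore also divided by the total of the set relative to the geometric mean of the 20 totals, and are then called scaled. Start markers of each tissue were open in its own 5 sets, except Vpreb1 in B cells, which was open in 1 of 5. Alb was also open at its start in 5 of 5 kidney and 5 of 5 lung sets, and Cd79a and Cd79b in 4 of 5 lung sets. Of the leukocyte genes, Ptprc was open in 5 of 5 lung and B cell sets and in no liver or kidney set, Tyrobp in 5 lung, 5 B cell and 4 liver sets, and Lyz2 in 5 liver, 5 lung, 2 kidney and 1 B cell set. Of the endothelial genes, Cdh5 was open in 4 liver, 5 kidney and 5 lung sets and Tek in all 15 sets of these tissues, both in no B cell set, while Pecam1 was open in 4 liver, 5 lung and 5 B cell sets and in no kidney set. The part of other cell types in the differences was not tested. In bulk samples, a larger share of open nuclei and more accessibility in each nucleus cannot be told apart.

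Upstream sequences were read for the members whose start held letters known for clock factors. They come from the C57BL/6J reference (mm10, GRCm38.p6), the maternal genome of every hybrid, and not from the samples. Each run is the 250 bases before the start, 5′ to 3′ on the strand of the gene, and capitals mark an E-box (CACGTG), an E′-box (CACGTT), a D-box (TTANGTAA), a ROR/REV-ERB element (TAGGTCA) or a CRE (TGACGTCA), each searched on both strands. The start is that of GENCODE for Per3, Cry1 and Dbp and that of RefSeq for Per1, Nr1d1 and Hlf. The Per1 run lies before the first RefSeq start, within the GENCODE gene.
Per1, chr11:69098699-69098948, + strand, E-box: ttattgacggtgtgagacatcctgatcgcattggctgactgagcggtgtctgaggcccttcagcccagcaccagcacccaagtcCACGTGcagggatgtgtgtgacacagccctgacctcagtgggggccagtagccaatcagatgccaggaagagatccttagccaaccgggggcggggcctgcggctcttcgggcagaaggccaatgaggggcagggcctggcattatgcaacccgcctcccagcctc
Per3, chr4:151044666-151044915, - strand, D-boxes: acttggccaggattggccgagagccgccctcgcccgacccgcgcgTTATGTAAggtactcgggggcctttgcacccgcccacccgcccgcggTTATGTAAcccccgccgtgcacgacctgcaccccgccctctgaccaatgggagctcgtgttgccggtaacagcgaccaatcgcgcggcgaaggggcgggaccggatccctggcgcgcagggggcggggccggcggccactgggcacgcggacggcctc
Cry1, chr10:85185065-85185314, - strand, E-box and E′-box: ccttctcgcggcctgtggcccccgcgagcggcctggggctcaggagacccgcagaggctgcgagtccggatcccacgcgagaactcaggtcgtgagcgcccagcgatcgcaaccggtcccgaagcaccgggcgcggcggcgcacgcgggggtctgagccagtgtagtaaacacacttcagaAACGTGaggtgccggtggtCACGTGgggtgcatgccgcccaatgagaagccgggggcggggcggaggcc
Nr1d1, chr11:98775378-98775627, - strand, E′-box: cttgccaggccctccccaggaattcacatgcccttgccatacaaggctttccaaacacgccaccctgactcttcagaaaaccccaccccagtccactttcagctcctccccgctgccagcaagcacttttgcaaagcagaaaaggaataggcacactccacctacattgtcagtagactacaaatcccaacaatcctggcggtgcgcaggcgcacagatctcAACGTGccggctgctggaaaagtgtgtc
Dbp, chr7:45704838-45705087, + strand, ROR/REV-ERB element: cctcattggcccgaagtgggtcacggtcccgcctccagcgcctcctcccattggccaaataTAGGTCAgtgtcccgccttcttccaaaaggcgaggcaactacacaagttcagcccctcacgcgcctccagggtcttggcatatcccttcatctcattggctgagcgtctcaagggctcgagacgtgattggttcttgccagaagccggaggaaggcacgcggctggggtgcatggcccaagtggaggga
Hlf, chr11:90390918-90391167, - strand, CRE: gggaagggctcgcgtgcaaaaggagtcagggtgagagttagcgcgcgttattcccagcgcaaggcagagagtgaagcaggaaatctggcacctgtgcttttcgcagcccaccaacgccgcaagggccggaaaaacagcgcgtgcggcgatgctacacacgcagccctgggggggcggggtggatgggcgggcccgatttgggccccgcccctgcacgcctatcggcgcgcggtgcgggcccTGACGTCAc

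Among 9 members scanned from 250 bases before to 50 after the GENCODE start, the E-box was found at 2, Cry1 at -50 and Per1 at -150, against 7.85% of all 21755 starts. The E′-box was found at Cry1 (-69) and Nr1d1 (-72), against 4.92% of all starts. Per3 held the D-box at -205 and at -158, against 2.15%. Dbp held the ROR/REV-ERB element at -189, against 2.39%, and Hlf the CRE, the site of the cAMP-responsive factors, at -31, against 2.49%. The RefSeq promoter table held 9 of the 10 members. There the E-box was found at Cry1, Per1 (-166) and Tef, and the ROR/REV-ERB element at Arntl but not at Dbp, so the matches depended on the start chosen. The Per1 E-boxes at -150 and -166 are different ones, since the GENCODE start is chr11:69095217 and the RefSeq run printed above ends at chr11:69098948. A match describes letters only, and binding was not measured at these genes.

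On mm10, Arntl lies at chr7:113207465-113314126 and Dbp at chr7:45705088-45710203, both on the + strand. Per1 (chr11:69095217-69109960) and Tef (chr15:81802421-81826863) are also on the + strand. On the - strand are Per2 (chr1:91415982-91459324), Per3 (chr4:151003652-151044665), Cry1 (chr10:85131700-85185064), Nr1d1 (chr11:98767932-98775333), Nr1d2 (chr14:18204054-18239127) and Hlf (chr11:90336536-90390895).

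Each of the 10 members had a hotspot within 250 bp of its start in all 20 adult sets, which is 200 of 200 starts. Over all protein-coding genes, 45.5% (9892 of 21755) were open at the start in all 20 sets. The count of members stayed at 10 when the window was the start base alone or 2000 bp on both sides. In mESCs, the starts of all 10 were open too, against 61.6% of all genes. CTCF, the insulator protein, had a hotspot at the starts of Per2 and Nr1d2 in mESCs, against 16.8% of all genes. Presence at the start thus did not separate tissues or hybrids at any member, and the tissues were compared by the open base pairs of the whole locus.

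Hlf showed the largest ratio of its highest to its lowest scaled value among the 10 loci. In the order B6x129, B6xC3H, B6xCAST, B6xPWK and B6xSPRET, unscaled values were 25446, 21711, 15696, 15844 and 13516 bp in liver. In kidney they were 10793, 11592, 19437, 13549 and 8040 bp, and in lung 6174, 3091, 8066, 5348 and 6337 bp. In B cells they were 1029, 519, 3953, 1566 and 827 bp, with 3 to 8 hotspots in the window of 94.4 kb. Scaled values ran from 1236 to 3965 bp in B cells and from 4869 bp upwards elsewhere, so scaled B cell values did not overlap the other tissues. Unscaled, they did, with 3953 bp in B6xCAST B cells above the 3091 bp of B6xC3H lung. Scaled means were 13053 ± 1399 bp in liver and 2015 ± 1129 bp in B cells (SD, n = 5 hybrids each). By limma, with p-values adjusted over 20080 genes by the Benjamini-Hochberg method, Hlf was lower in B cells than in the mean of the other tissues, with a log2 difference of -2.29 (SE 0.16, adjusted p = 3.09e-10). Hlf was higher in liver, by 1.40 (SE 0.16, adjusted p = 4.68e-07), and in kidney, by 1.03 (SE 0.16, adjusted p = 2.98e-05), and it had a difference in lung of -0.14 (SE 0.16, adjusted p = 0.502).

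Tef, the gene of another PAR bZIP activator, was likewise highest in liver and lowest in B cells. Its unscaled values in the same order of hybrids were 19895, 21544, 15201, 15383 and 14207 bp in liver and 13415, 13529, 11323, 13440 and 12241 bp in kidney. Lung held 8589, 6858, 12243, 8318 and 8390 bp, and B cells 4017, 2657, 4450, 3635 and 2871 bp. Both the liver values, above, and the B cell values, below, were apart from all other sets before scaling, and after scaling the B cell values were (4463 to 6326 bp, against 7025 bp or more). Tef was higher in liver by 0.60 (SE 0.08, adjusted p = 2.42e-06) and in kidney by 0.43 (SE 0.08, adjusted p = 0.000162), and lower in B cells, at -1.06 (SE 0.08, adjusted p = 6.89e-10). The kidney call was lost with flanks of 50 kb, at 0.11, and in the gene body alone, at -0.002. The hotspot at the Tef start was 544 to 982 bp wide in B cells and 1219 to 1672 bp wide in the 15 other sets.

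Dbp, the third PAR bZIP gene, was called in lung only, where it was lower, at -0.37 (SE 0.14, adjusted p = 0.0287), a direction that turned to 0.26 when hotspots were counted in place of base pairs. The call was also lost without scaling, at -0.46 (adjusted p = 0.0513 by limma), without the filter on low values (adjusted p = 0.0543), in the 75000 highest-scoring hotspots, at -0.33, and without B6x129, B6xC3H or B6xPWK. Scaled values of Dbp were 6247 to 10647 bp in lung, 8890 to 13045 bp in B cells, 9315 to 12752 bp in liver and 6872 to 14830 bp in kidney, so all tissues overlapped.

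**Figure D1:**
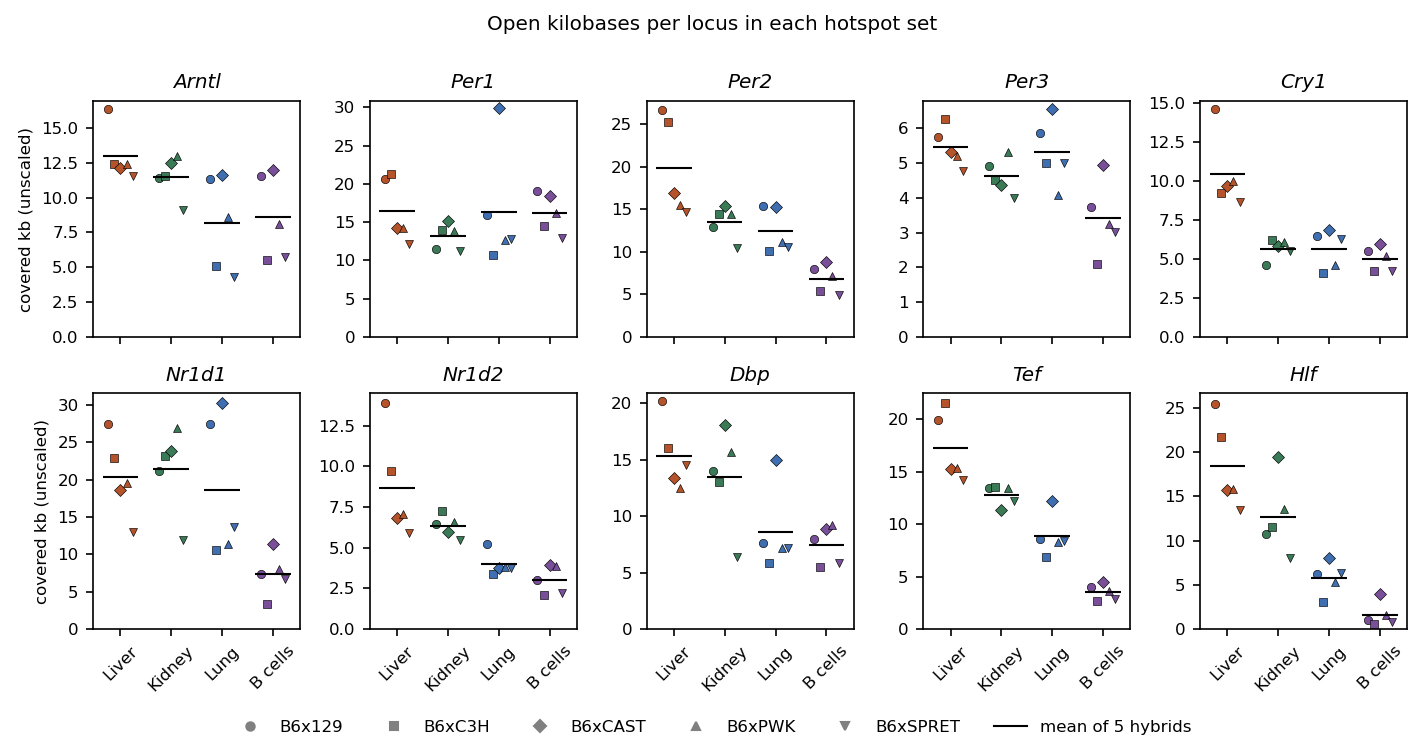
Unscaled open base pairs (vertical axis, kb covered by hotspots) at each of the 10 loci, 1 panel a gene, with the 4 tissues on the horizontal axis, 1 point a hybrid and a line for the mean of the 5 hybrids. B cell points lie below all others at Per2 (4913 to 8791 bp) and Tef (2657 to 4450 bp), and liver points above all others at Cry1 and Tef.

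Among the Per genes, which encode repressors of BMAL1 and CLOCK, the loci went different ways. Scaled open base pairs of Per1 were 23970, 34577, 18461, 20343 and 25153 bp in B cells, against 10605 to 14882 bp in liver, 9912 to 12450 bp in kidney and 12998 to 21229 bp in lung. Per1 was higher in B cells by 0.89 (SE 0.10, adjusted p = 2.91e-07). It was lower in kidney, at -0.51 (SE 0.10, adjusted p = 0.000416) and in liver, at -0.49 (SE 0.10, adjusted p = 0.000391), the liver difference being 0.12 without scaling. The Per1 values of B cells and lung overlapped through B6xCAST lung, at 21229 bp. Unscaled, the B cell values were 12947 to 19066 bp, inside the range of liver, and without scaling the B cell call was lost, at 0.12 (adjusted p = 0.55 by limma), as was the kidney call, at -0.27 (adjusted p = 0.236). By number of hotspots the liver and kidney calls were lost too, at -0.31 and -0.15.

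Per2 moved the other way in B cells, at -0.36 (SE 0.07, adjusted p = 0.000152), with unscaled values of 8036, 5392, 8791, 7129 and 4913 bp that all lay below the 10090 bp or more of the other 15 sets. Scaled, the B cell values of 8817 to 12838 bp overlapped liver (from 11591 bp), kidney (from 11116 bp) and lung (from 10863 bp). By number of hotspots the B cell call was lost, at -0.38 (adjusted p = 0.0521 by limma). In liver Per2 was higher by 0.27 (SE 0.07, adjusted p = 0.00269), with 14715 to 26620 bp unscaled, but by number of hotspots the liver difference was -0.11, and without the B6x129 and B6xC3H liver sets it was 0.22 and not called. Per3, the least covered of the Per loci, was lower in liver, at -0.27 (SE 0.10, adjusted p = 0.0254), which turned to 0.33 without scaling and 0.08 by number of hotspots. It was higher in lung by 0.35 (SE 0.10, adjusted p = 0.00842), with scaled values of 4800, 7896, 4661, 4684 and 6008 bp there against 3071 to 4386 bp in liver. The lung call was lost without scaling, at 0.26, by number of hotspots, at 0.34, and without B6xC3H, at 0.23. Part of the Per3 window belongs to Camta1, which runs on the same strand, and hotspots in it are counted for Per3 by position only.

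Cry1, which encodes the repressor that partners the PER proteins, was higher in liver by 0.31 (SE 0.10, adjusted p = 0.0116). Unscaled liver values of 14619, 9262, 9667, 10003 and 8672 bp lay above all 15 other sets, which held 4081 to 6841 bp. Scaled values overlapped, at 6475 to 7870 bp in liver, 4861 to 7591 bp in lung and 5967 to 10041 bp in B cells. The liver call was lost in the gene body alone, at 0.04, with flanks of 50 kb, at 0.07, and without B6x129, B6xCAST or B6xPWK, at 0.24, 0.23 and 0.28. Cry1 was lower in kidney, at -0.45 (SE 0.10, adjusted p = 0.000842), with scaled values of 3948 to 5973 bp, a call lost without scaling, at -0.22, in the gene body alone, at -0.17, and in the 75000 highest-scoring hotspots, at -0.18. The call of higher in B cells, by 0.31 (SE 0.10, adjusted p = 0.00937), was turned in 3 alternatives, to -0.45 without scaling, -0.22 by number of hotspots and -0.03 in the 75000 highest-scoring hotspots of each set.

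Arntl, the gene of the activator BMAL1, was lower in lung, at -0.39 (SE 0.11, adjusted p = 0.00467), with scaled values of 9258, 8062, 8232, 9896 and 5170 bp. It was higher in B cells by 0.41 (SE 0.11, adjusted p = 0.00157), with 10239 to 14493 bp, and the B cell difference was -0.35 without scaling and, in the gene body alone, 0.24 and not called. Scaled liver values of 8685 to 10120 bp and kidney values of 9782 to 10489 bp overlapped each other.

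Nr1d1, the gene of REV-ERBα, was lower in B cells, at -0.70 (SE 0.13, adjusted p = 7.76e-05), though by number of hotspots the difference was 0.10. Its unscaled values there were 7413, 3317, 11364, 8105 and 6762 bp. Liver held 12945 to 27507 bp, kidney 11940 to 26893 bp and lung 10549 to 30267 bp, so B cells and lung overlapped. Scaled, the B cell values of 7898 to 13137 bp overlapped liver (from 11377 bp), kidney (from 12934 bp) and lung (from 13112 bp). Nr1d1 was higher in kidney by 0.41 (SE 0.13, adjusted p = 0.0114) and in lung by 0.35 (SE 0.13, adjusted p = 0.0321), and the lung difference was -0.02 by number of hotspots and -0.11 in the gene body alone. The lung call was also lost without scaling, at 0.255 (adjusted p = 0.377 by limma), with flanks of 50 kb, at 0.24, and without the filter on low values (adjusted p = 0.0591). The kidney call was lost by number of hotspots, at 0.06, in the gene body alone, at 0.36, and without B6xPWK, at 0.31, and the B cell call in the gene body alone, at -0.34. Nr1d2, the gene of REV-ERBβ, was higher in liver by 0.36 (SE 0.10, adjusted p = 0.00443) and lower in lung, at -0.34 (SE 0.10, adjusted p = 0.00894) and in B cells, at -0.24 (SE 0.10, adjusted p = 0.0379). Its scaled values were 2659 to 5373 bp in lung, 3801 to 4962 bp in B cells, 4890 to 6321 bp in kidney and 5203 to 7444 bp in liver. The liver call was lost in the 75000 highest-scoring hotspots, at 0.20, and without the B6x129 and B6xC3H liver sets, at 0.26, and the lung call was lost in the 75000 highest-scoring hotspots, at -0.30, by number of hotspots, at -0.37, and without B6xCAST, at -0.23.

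**Figure D2:**
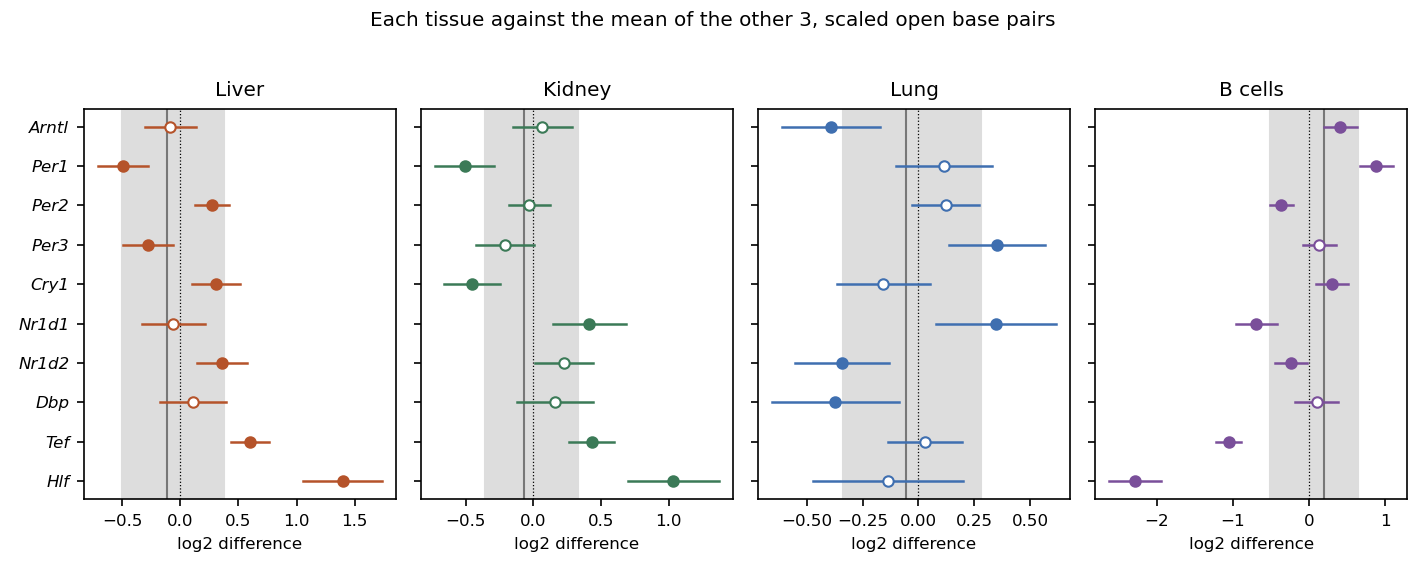
Log2 difference in scaled open base pairs of each tissue against the mean of the other 3 tissues, for the 10 members, with 95% confidence intervals from limma, filled points where the adjusted p was under 0.05, and a grey band for the middle 50% of all genes around their median. The interval of Hlf runs from 1.06 to 1.73 in liver and from -2.63 to -1.95 in B cells.

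Counted over the members, liver had 5 higher and 2 lower, where 26.7% of all genes tested were called higher and 37.9% lower. Kidney had 3 higher and 2 lower, against 24.1% and 30.7%. Lung had 2 higher and 3 lower, against 22.5% and 26.8%, and B cells 3 higher and 5 lower, against 46.4% and 28.7%. The median difference of the members was -0.07 in B cells, -0.06 in lung, 0.11 in kidney and 0.19 in liver, beside 0.20, -0.06, -0.07 and -0.12 over all genes tested. Relative to these medians of all genes, Hlf was at 1.51 in liver and -2.49 in B cells, Tef at -1.26 and Per1 at 0.69 in B cells, and Arntl and Cry1 at 0.21 and 0.11 in B cells. Without scaling, the medians of all genes were 0.46 in liver and -0.52 in B cells, and relative to them Per1 was at -0.34 and Per3 at -0.13 in liver, and Per1 at 0.64, Arntl at 0.17 and Cry1 at 0.07 in B cells, the same signs as with scaling. Hlf in B cells lay at the 5.81 percentile of all genes, and in liver at the 93.9 percentile. Each member count is thus read against a background in which many genes differed.

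Another 25 genes of the clock pathway, such as Clock and the casein kinases, were called in B cells at 7 loci higher and 10 lower, in lung at 4 and 7, in kidney at 9 and 6 and in liver at 11 and 4. Of all genes tested, 46.4% were called higher and 28.7% lower in B cells, and 22.5% and 26.8% in lung. In kidney the shares were 24.1% and 30.7%, and in liver 26.7% and 37.9%. Median differences of the 25 were -0.01, 0.01, 0.10 and 0.16 in that order of tissues. Those of all genes tested were 0.20, -0.06, -0.07 and -0.12. Rora and Rorb encode activators that oppose the REV-ERB proteins. In B cells Rorb was lower, at -4.02, and Rora, at -1.42 on the log2 scale (SE 0.23 and 0.07, adjusted p = 1.82e-11 and 2.7e-12 by limma). Npas2, whose protein can take the place of CLOCK, fell by 1.36 and Cry2 by 1.28 in B cells (SE 0.11 and 0.12, adjusted p = 1.03e-09 and 1.46e-08 by limma). Bhlhe41, the gene of the repressor DEC2, was higher in B cells by 0.90 (SE 0.10, adjusted p = 1.55e-07 by limma), and by 0.15 without scaling (adjusted p = 0.468 by limma). Relative to the median of all genes, Bhlhe41 was at 0.70 with scaling and 0.67 without.

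Merging the 20 adult sets gave 745754 sites, of which 361 lay in the 10 windows. Sites present in all 20 sets made up 35 of them (9.7%), against 3.77% of all sites, and every member had at least 2. The site at each member start is among the 35. Every window holds a gene start by definition, while all sites include those away from genes, so the shares do not compare like regions. Sites found in 1 set only made up 137 (38.0%), against 42.2%. Sites in all 5 sets of a tissue and in none of the other 15 were 1 for B cells (0.277%, against 0.334%), 3 for lung (0.831%, against 1.47%), 1 for kidney (0.277%, against 1.99%) and 13 for liver (3.6%, against 3.03%). Per1 and Dbp had no such site. Of the 35 sites open in every set, 32 overlapped a DNase-seq hotspot of mESCs, against 89.0% of all such sites, and 20 a CTCF hotspot, against 67.2%. None of the 18 sites restricted to a tissue overlapped either. Such overlap was also rare over all sites restricted to liver, kidney, lung or B cells. It was 2.34%, 4.35%, 4.07% and 3.25% for DNase-seq and 1.95%, 1.65%, 1.33% and 2.21% for CTCF.

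**Figure D3:**
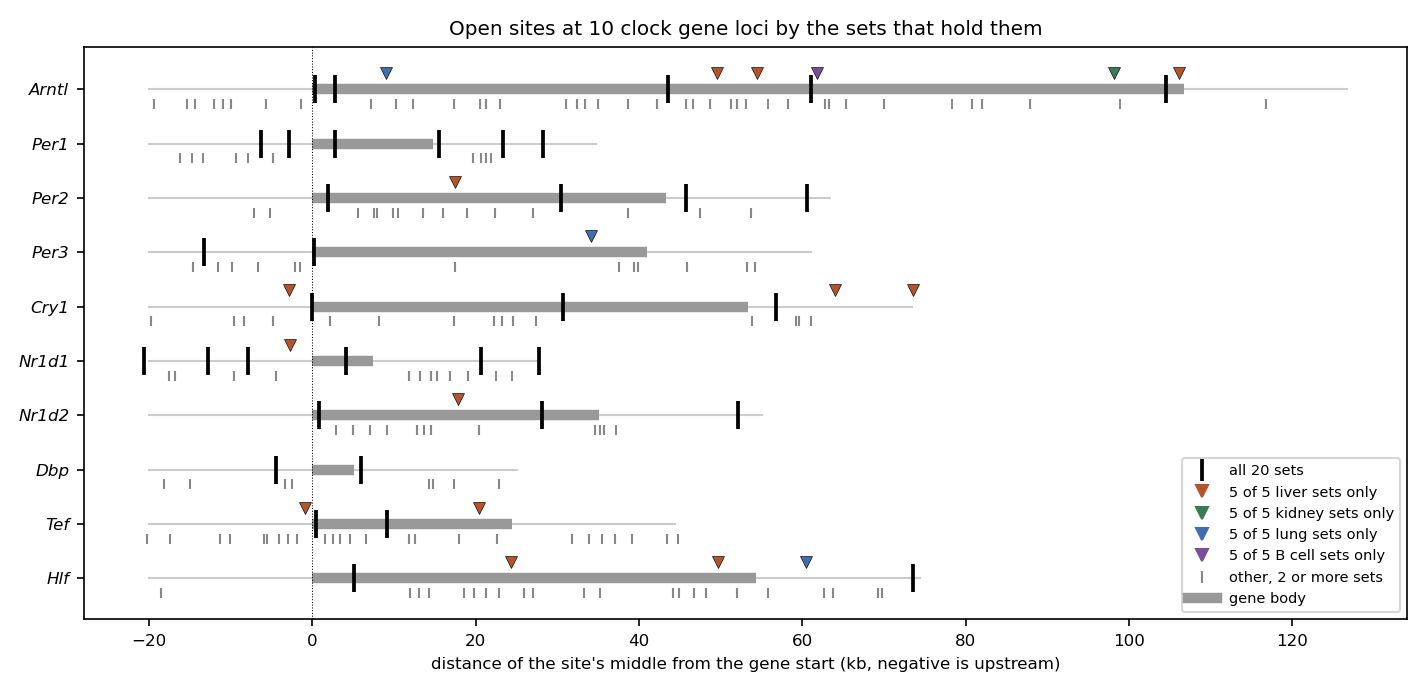
Merged sites around each member by the distance of the middle of the site from the start (horizontal axis, kb), with black ticks for sites open in all 20 sets, coloured triangles for sites in all 5 sets of 1 tissue only, grey ticks for other sites in 2 or more sets and grey bars for gene bodies. Sites in 1 set only are not drawn; black ticks number 35 and liver triangles 13.

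The 3 sites restricted to a tissue in the Hlf window are shown, with 1 liver site each of Tef and Cry1, as examples from the loci with higher open base pairs in liver. They were chosen after their values were seen, and none of them carries exon bases. Each run is the middle 300 bases on the strand of the gene in the same reference, with capitals for the same letters.
Hlf liver site, 24.3 kb after the start in an intron, chr11:90366489-90366788, - strand: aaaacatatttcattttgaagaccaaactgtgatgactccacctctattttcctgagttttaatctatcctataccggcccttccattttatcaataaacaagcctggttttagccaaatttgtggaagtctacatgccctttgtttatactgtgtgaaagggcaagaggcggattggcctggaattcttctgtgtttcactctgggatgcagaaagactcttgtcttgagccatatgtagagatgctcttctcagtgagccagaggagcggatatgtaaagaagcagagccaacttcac
Hlf liver site, 49.7 kb after the start in an intron, chr11:90340997-90341296, - strand: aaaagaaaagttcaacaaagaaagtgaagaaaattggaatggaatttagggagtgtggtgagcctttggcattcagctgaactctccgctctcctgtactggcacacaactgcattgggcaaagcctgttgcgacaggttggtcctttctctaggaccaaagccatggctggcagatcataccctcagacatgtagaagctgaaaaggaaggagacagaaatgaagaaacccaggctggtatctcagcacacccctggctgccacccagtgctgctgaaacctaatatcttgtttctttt
Hlf lung site, 60.4 kb after the start and beyond the gene, chr11:90330341-90330640, - strand: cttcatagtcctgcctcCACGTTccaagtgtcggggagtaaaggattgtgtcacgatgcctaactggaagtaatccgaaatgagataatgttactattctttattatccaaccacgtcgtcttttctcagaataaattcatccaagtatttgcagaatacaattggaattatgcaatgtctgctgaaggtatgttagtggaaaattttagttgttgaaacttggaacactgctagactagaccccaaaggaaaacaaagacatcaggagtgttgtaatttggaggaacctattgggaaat
Tef liver site, 20.4 kb after the start in an intron, chr15:81822645-81822944, + strand: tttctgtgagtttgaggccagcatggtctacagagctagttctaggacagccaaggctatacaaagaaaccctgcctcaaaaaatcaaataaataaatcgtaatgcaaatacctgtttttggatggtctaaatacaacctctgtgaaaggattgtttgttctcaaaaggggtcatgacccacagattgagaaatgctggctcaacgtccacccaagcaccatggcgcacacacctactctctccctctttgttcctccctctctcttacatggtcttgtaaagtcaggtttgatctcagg
Cry1 liver site, 2.8 kb before the start, between genes, chr10:85187699-85187998, - strand: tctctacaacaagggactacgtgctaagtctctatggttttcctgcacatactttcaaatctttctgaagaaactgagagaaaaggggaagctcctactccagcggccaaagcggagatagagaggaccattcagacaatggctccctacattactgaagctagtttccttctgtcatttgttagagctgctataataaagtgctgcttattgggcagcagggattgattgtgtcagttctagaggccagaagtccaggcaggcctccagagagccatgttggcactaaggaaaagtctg

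In liver, the Hlf site at 24.3 kb was 327, 304, 237, 261 and 209 bp wide in B6x129, B6xC3H, B6xCAST, B6xPWK and B6xSPRET, and the site at 49.7 kb was 347, 385, 454, 361 and 340 bp wide. The Hlf lung site was 420, 358, 541, 453 and 552 bp wide. The intron site of Tef was 468, 449, 426, 484 and 449 bp wide, and the Cry1 site before the start 1437, 895, 863, 1203 and 819 bp. All 5 hybrids held each of these sites, and the Cry1 site was widest in B6x129. Of the 5 sites printed, only the Hlf lung site held a match, an E′-box.

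Further sites restricted to a tissue were as follows. Liver sites lay in introns of Per2 (17.5 kb, 388 to 748 bp), Nr1d2 (17.8 kb, 365 to 517 bp) and Arntl (54.4 kb, 397 to 541 bp), and 2.7 kb before Nr1d1 (93 to 258 bp). A liver site 0.9 kb before Tef (187 to 560 bp) overlaps an exon of Gm17597 on the opposite strand. In the window of Cry1, liver sites at 64.0 and 73.5 kb lay in introns of Mterf2 and Tmem263. Lung sites lay in an intron of Arntl at 9.0 kb (301 to 435 bp) and within Per3 and Camta1 at 34.1 kb (242 to 428 bp). The kidney site lay in an exon of Arntl at 98.2 kb (495 to 635 bp). Arntl also held the B cell site, in an intron at 61.8 kb (60 to 502 bp), and liver sites in an intron at 49.5 kb (201 to 329 bp) and in an exon at 106.1 kb (163 to 270 bp), which are named beyond the 3 widest sites. Over the middle 300 bases of 329 member sites without Per2, the E-box was found at 5.17% (17 sites), against 4.3% of all sites, the E′-box at 6.08% against 3.81%, the D-box at 2.13% against 3.73%, the ROR/REV-ERB element at 3.34% against 3.6% and the CRE at 0.304% against 0.312%. At the 12 liver sites among them none of the 5 was found, where all liver sites held them at 4.4%, 3.87%, 4.28%, 5.42% and 0.288%, in the same order.

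Some sites were shared by tissues in a fixed pattern. In 10 member sites all 15 sets of liver, kidney and lung were open and no B cell set was (2.77%, against 1.14% of all sites). Per2 held 4 of them, at -5.2, 13.6, 16 and 22.4 kb from the start, and Hlf held 2, at 21.3 and 35.2 kb, as did Tef, at 4.6 and 37.1 kb. Another 10 sites were open in all 10 liver and kidney sets and in no other (2.77%, against 1.12%). Nr1d2 held 3 of these, at 7.0, 9.1 and 12.8 kb, and Hlf (13 and 48.2 kb), Tef (-1.9 and 11.8 kb) and Per2 (18.9 and 38.6 kb) held 2 each. No member site was open in all 10 lung and B cell sets and in no other, against 0.0646% of all sites. The pattern of shared liver and kidney sites was counted after the tissue differences were seen. Here too, all sites include those away from genes, so the shares do not compare like regions.

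Hotspots at the member starts could be wide. A start hotspot of 3 kb or more was found in 22 of 200 cases (11%), against 1.6% of all starts and 2.81% of the starts open in all 20 sets. The liver sets of B6x129 and B6xC3H held 12 of the 22, in 20 cases (60.0%, against 6.28% of all starts and 10.6% of those always open). These sets also held the most hotspots of 3 kb or more in the genome, 0.831% and 0.782%. The other 18 sets held 10 in 180 cases (5.56%, against 1.08% and 1.95%). The width was largest at Dbp, at 15506 bp in B6x129 liver, and at Nr1d1, at 11030 bp in the same set. Wide start hotspots numbered 6 at Dbp, 5 at Nr1d1, 3 each at Per1, Per2 and Hlf and 1 each at Cry1 and Nr1d2, and none at Arntl, Per3 and Tef. The merged site at Dbp also spans the starts of Rpl18 and Sphk2.

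At the short genes, hotspots covered much of the gene body. The body of Nr1d1 was covered to 100%, 66.6%, 70.7%, 76.0% and 31.3% in liver and 81.9%, 68.4%, 53.6%, 96.99% and 29.8% in kidney, in the order of hybrids above. In lung it was covered to 94.5%, 19.3%, 98.6%, 23.6% and 24.2%, and in B cells to 21.0%, 13.9%, 43.5%, 33.0% and 23.2%. The B6x129 and B6xCAST lung sets stood apart from the other lung sets. The body of Dbp was covered from 44.6% to 65.9% in lung, from 46.6% to 77.3% in B cells, from 55.5% to 100% in kidney and from 76.2% to 100% in liver. The body of Per1 was covered to 69.1% in B6xCAST lung, against 19.9% to 36.5% in the sets of the other tissues and 23.6% to 33.3% in the other lung sets. Total open length of the lung sets was 84.28 Mb in B6x129 and 97.03 Mb in B6xCAST, against 43.76 to 60.06 Mb in the other 3 hybrids. The part of that total in the covered shares was not tested.

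**Figure D4:**
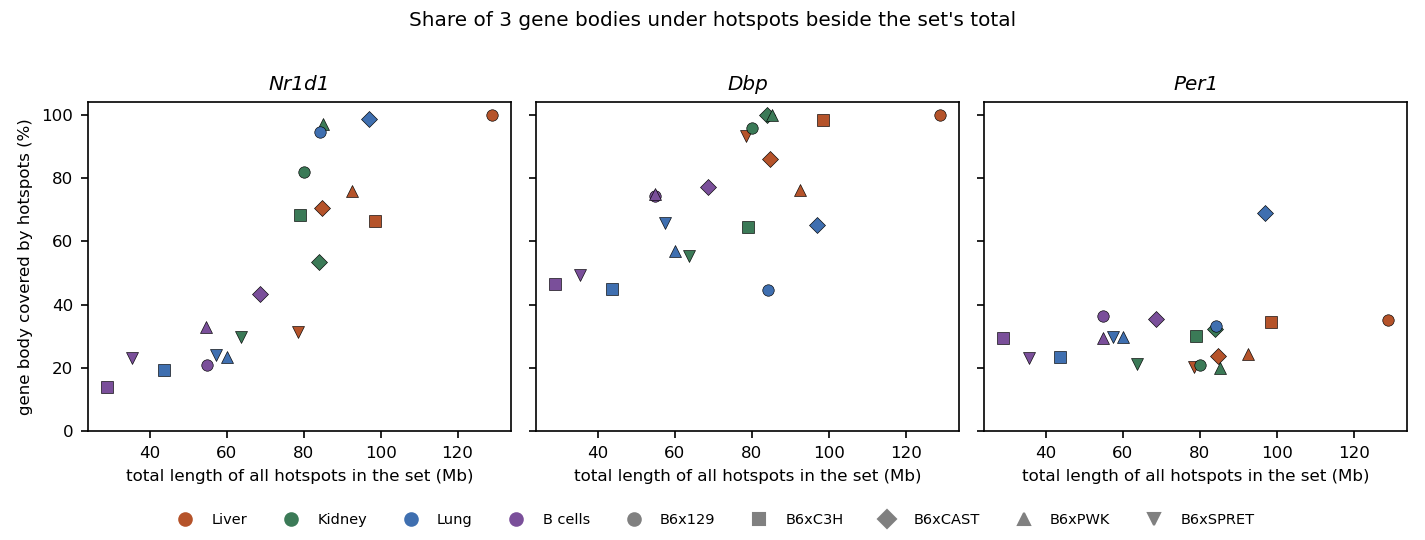
Percent of the gene body of Nr1d1, Dbp and Per1 covered by hotspots (vertical axis) against the total length of all hotspots in the set (horizontal axis, Mb), with 1 point for each of the 20 adult sets, coloured by tissue and shaped by hybrid. Nr1d1 in lung runs from 19.3% to 98.6%.

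Between hybrids, the wild-derived crosses B6xCAST, B6xPWK and B6xSPRET were compared with B6x129 and B6xC3H over the 4 tissues. The 4 tissue sets of a hybrid counted as separate sets here. The SEs and p-values of this comparison therefore do not measure the spread between hybrids of a group. Of the members, 0 were called higher and 0 lower by limma, against 0.0548% of all genes called higher (11 genes) and 0% lower. At an unadjusted p under 0.05, 3 members and 1445 of 20080 genes differed. These were Per2, at -0.21 (SE 0.06, p = 0.00328 and adjusted p = 0.42 by limma), Nr1d2, at -0.22 (SE 0.09, p = 0.0218 and adjusted p = 0.646) and Hlf, at 0.30 (SE 0.14, p = 0.0464 and adjusted p = 0.686). The intervals of the other members reached no further than -0.28 and 0.26. Within a tissue, the SD of the log2 scaled values over hybrids had a median of 0.24 over members and 0.24 over all genes tested. Hlf varied most, at 0.40, which 78.4% of genes did not exceed. Of sites present in at least 8 sets, 1 in the windows was missing from all 4 sets of a hybrid. This site, 47.5 kb after the Per2 start at chr1:91411675-91411916 in an exon of Hes6, was open in 10 sets and in none of B6xSPRET. Such sites were not counted outside the windows, so whether 1 is few or many is not known.

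For each member, the gene outside its window with the highest Pearson correlation of log2 scaled open base pairs over the 20 sets was taken, and these points share sets and tissues, so the values are descriptive. The correlation was 0.969 for Hlf with Klhdc7a, 0.950 for Tef with Mpst, 0.938 for Per1 with Plk3 and 0.933 for Cry1 with Mia3. It was 0.880 for Nr1d1 with Ebf2, 0.877 for Arntl with Iqcd, 0.859 for Nr1d2 with Msh4, 0.836 for Per2 with Spc24, 0.834 for Per3 with Ilf2 and 0.767 for Dbp with Adad2. Among the members, Tef and Hlf were most alike, at 0.843, and Dbp had no member above 0.263.

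In mESCs, 1 set of 115211 hotspots covering 42.4 Mb, scaled open base pairs were 5402 bp at Hlf, 6551 bp at Tef and 8351 bp at Dbp, inside the ranges of the adult sets. Per2 had 6738 bp, below the adult range of 8817 to 17642 bp, and Nr1d1 3926 bp, below 7898 to 22427 bp. These were 2 of 10 members below all 20 adult sets, against 11.5% of all genes, and 0 were above, against 15.7%. Unscaled, 10 of 10 were below all 4 adult B6xCAST sets, as were 62.1% of genes. There is no repeat of the mESC set, so no test was made.

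The RNA-seq tables were too sparse to measure most members. Over 17 samples, 5 of B cells and 4 of each solid tissue, totals ran from 283725 to 809337 expected counts, and even Actb had 1 to 99. B6xC3H, B6xPWK and B6xSPRET were sampled in every tissue, B6xCAST in B cells only and B6x129 not at all. B6xSPRET gave 2 samples of each solid tissue and B6xPWK 2 of B cells. The RNA tests had no hybrid term, so part of a tissue difference cannot be told apart from hybrid. Only Nr1d1 and Dbp passed the count filter, with 4479 genes in all. Arntl, Per1, Per3 and Cry1 had at most 2 counts in any sample, Nr1d2 and Tef at most 6, Per2 at most 8 and Hlf at most 20. Counts of Nr1d1 were 31 to 51 in lung, 13 to 19 in kidney, 4 to 12 in B cells and 0 to 7 in liver. Those of Dbp were 11 to 23, 10 to 26, 11 to 53 and 5 to 19.

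By edgeR's quasi-likelihood test with Benjamini-Hochberg adjustment, Nr1d1 was higher in lung by 1.75 on the log2 scale (adjusted p = 8.84e-05) and lower in B cells, at -1.46 (adjusted p = 0.00148), the latter being lost by limma on log2(TPM + 1), at -0.64 (adjusted p = 0.304). It was not called in liver, at -0.98 (adjusted p = 0.102), or in kidney, at 0.69 (adjusted p = 0.141). Dbp was not called in any tissue, at -0.33 in B cells, -0.39 in lung, 0.07 in kidney and 0.65 in liver. Members called were thus 1 of 2 in B cells, 1 of 2 in lung, 0 of 2 in kidney and 0 of 2 in liver, against 62.9%, 46.3%, 32.5% and 43.3% of the genes tested, in either direction. Thra overlaps Nr1d1 on the opposite strand, and Sphk2 overlaps Dbp likewise. The strand setting of the counting is not given in the sources used here, so reads of such partners cannot be told apart. Thra itself was higher in lung by 3.17 (adjusted p = 1.56e-08 by edgeR) and lower in B cells, at -6.82 (adjusted p = 6.68e-11 by edgeR), with up to 246 counts in a sample. It was also higher in liver, by 1.99 (adjusted p = 6.57e-05 by edgeR), and in kidney, by 1.67 (adjusted p = 0.000324 by edgeR). These 2 calls were each lost in 1 alternative, at 0.28 and 1.24. Sphk2 was lower in B cells, at -1.52 (adjusted p = 0.0269 by edgeR). It was not called in lung, kidney or liver, at 0.165, 0.907 and 0.444. The RNA counts were not read as transcript levels.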

How the data were processed

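DNase-seq was carried out by the authors on nuclei of 4 tissues from 5 F1 hybrids and on mESCs. Reads were mapped to mm10 with BWA, the samples of a hybrid and tissue were pooled, and hotspots were called at FDR 5%. The deposited sets give coordinates with a −log10 FDR for every hotspot, capped at 100, which was used here only to rank and filter hotspots. For RNA-seq, the deposited tables give expected counts and TPM by RSEM for each sample, and RNA samples were not pooled. Tools and build are those of the submitters' processing notes. Because hotspot sets pool samples, the SDs given within a tissue are those between hybrids. The limma tests use the spread left between sets after the tissue and hybrid terms.

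Open base pairs at each locus were tested with limma 3.58.1 on log2(scaled bp + 100) over 20080 genes with a mean of at least 100 bp, with hybrid as covariate, and each tissue was set against the mean of the other 3. The RNA tables, rounded to whole counts, were tested by edgeR 4.0.16 (TMM, filterByExpr). P-values were adjusted by the Benjamini-Hochberg method, with a threshold of 0.05. R 4.3.3, DESeq2 1.42.0, Python 3.11.15, pandas 2.3.3, numpy 2.4.6 and matplotlib 3.10.9 were used. Tests were run on simulated data first. Starts were 5′ ends of principal GENCODE vM21 transcripts, or of the gene record where no transcript was marked as principal, as at Per1. Sites were hotspots merged by 1 bp of overlap.

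The members and lists were chosen with earlier results of these data known. Text names all members, their restricted sites (at most 3 a member, by mean width), up to 6 of 25 pathway genes and the most correlated gene of each member. The alternatives were other scalings, measures, windows, filters and tests, and each hybrid or RNA sample left out. The fits without the B6x129 and B6xC3H liver sets and the RefSeq starts were chosen after seeing the data. Depth of hotspot sets was taken as their number and covered length, since reads per set are not in the sets. The labels do not say that RNA samples came from separate animals, so the p-values measure the spread between these samples. Not every gene of the lists is reported here.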

Additional observations from a re-analysis of the deposited data

Results flagged for a closer look

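For each member, tissue and measure (scaled open base pairs, share of the gene body covered, and width of the start hotspot), the 5 hybrids were searched for a set far from the other 4 by Dixon's criterion. Of 120 such groups, 16 held one, where chance gives about 1 in 20, or 6.0. B6xCAST was the set apart in 8 and B6x129 in 6. The 3 measures had equal numbers of groups, and of the 16, 2 lay in scaled open base pairs, 7 in the share of the body and 7 in the width, the last 2 measures being unscaled. No explanation was weighed.

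At Hlf in B cells, B6xCAST held 3965 bp of scaled open base pairs (1236 to 1973 bp in the other hybrids), a body covered to 6.1% (0.17% to 1.81%) and a start hotspot of 632 bp (309 to 339 bp). At Per1, B6xC3H liver held 14882 bp (10605 to 11544 bp). For the share of the body covered, B6x129 liver stood apart at Arntl with 12.9% (9.18% to 9.86%), at Cry1 with 10.3% (5.81% to 6.7%) and at Nr1d2 with 30.2% (14.3% to 17.1%). B6x129 kidney stood apart at Cry1 with 4.02% (5.17% to 5.47%), and B6xCAST lung at Per1 with 69.1% (23.6% to 33.3%) and at Tef with 30.8% (16.6% to 19.7%). For the width of the start hotspot, B6xCAST stood apart at Per2 in kidney with 1708 bp (831 to 1026 bp), at Hlf in kidney with 4228 bp (457 to 1101 bp) and at Nr1d1 in B cells with 2609 bp (302 to 908 bp). B6x129 stood apart at Nr1d1 in lung with 6466 bp (801 to 1860 bp) and at Dbp in liver with 15506 bp (1013 to 4945 bp), and B6xC3H at Tef in liver with 1672 bp (1230 to 1356 bp).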

How the results depend on the processing

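Of 25 differences called between tissues at the members, 6 kept their call in all 16 alternatives: Tef and Hlf in liver, Hlf in kidney, Arntl in lung, and Tef and Hlf in B cells. A further 9 turned in at least 1 alternative and 10 lost the call without turning. Of the 9, Per1 in liver and Arntl in B cells turned only without scaling, which moved the median of all genes from -0.12 to 0.46 in liver and from 0.20 to -0.52 in B cells. Without scaling, Per1 in liver was at 0.12, Per3 in liver at 0.33, Arntl in B cells at -0.35 and Cry1 in B cells at -0.45. By number of hotspots, Per2 in liver was at -0.11, Per3 in liver at 0.082, Nr1d1 in lung at -0.019, Dbp in lung at 0.26, Cry1 in B cells at -0.22 and Nr1d1 in B cells at 0.10. In the gene body alone, Tef in kidney was at -0.002 and Nr1d1 in lung at -0.11, and in the 75000 highest-scoring hotspots Cry1 in B cells was at -0.032. The causes were not tested. The number of members called in liver, 7, became 4 by number of hotspots and 4 without the B6x129 and B6xC3H liver sets (an alternative chosen after seeing the data), where Hlf was at 1.10 and Tef at 0.60. In kidney 5 became 3 in the gene body alone. In lung 5 became 2 without scaling, 1 by number of hotspots and 3 without the filter, and leaving out 1 hybrid gave 3 to 5. With 1 hybrid left out, further calls were lost at Per3 in liver (B6x129 or B6xSPRET, -0.20 and -0.26), Nr1d1 in lung (B6x129 or B6xCAST, 0.25 and 0.30), Dbp in lung (B6x129, B6xC3H or B6xPWK, -0.38 to -0.27), Cry1 in B cells (B6xC3H, 0.21) and Nr1d2 in B cells (B6x129, B6xC3H or B6xSPRET, -0.24 to -0.16). The lung count of 3 came without B6x129, B6xC3H or B6xCAST. Nr1d2 in B cells also lost its call without the hybrid term. In B cells 8 became 5 by number of hotspots. Genes called between hybrid groups, 11, were 7 by number of hotspots, 3 in the gene body alone, 6 without the filter and 0 in the 75000 highest-scoring hotspots, and 6 to 16 with 1 hybrid left out (6 without B6xC3H, 7 without B6xCAST and 7 without B6xPWK). Sites restricted to kidney, 1, became 2 at FDR 1%, 4 in the 75000 highest-scoring hotspots and 5 when 4 of 5 sets were enough. Lung sites, 3, became 5 by the last rule, and the B cell site, 1, became 3 in the 75000 highest-scoring hotspots. In the RNA tables, members called in liver, 0, became 2 without the filter and 1 by limma on TPM. Leaving out 1 sample gave 0 to 1 in liver and 0 to 1 in kidney, with 1 in both without the B6xPWK liver sample. Lung and B cells, 1 each, became 2 each without the filter. With 500 bp on both sides of the start, members with the E-box became 5 (17.1% of all starts) and with the ROR/REV-ERB element 2 (7.06%). The hybrid term of the fit pairs the sets of a hybrid, and the labels of the sets carry no replicate numbers. The low RNA counts left 2 members to test.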
